A study of Mus musculus with 4 samples.

Results

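The sodium pump subunit genes described here are Atp1a4, Atp1b1, Atp1b2 and Atp1b3, 4 of the 18193 genes with a probe set of 1 gene symbol. They are read by 9 of the 45101 probe sets of the array: 1 for Atp1a4, 5 for Atp1b1, 2 for Atp1b2 and 1 for Atp1b3. They were chosen by gene family after Atp1b1 had been seen to read lower with berberine in these same arrays, so the berberine values of Atp1b1 below describe that choice and test nothing. Total RNA came from MC/9, a growth factor-dependent mast cell line; the labels give liver as its tissue of origin, an age of 13 days and the strain background (B6 X A/J)F1. The groups were BER+DNP (10 microM berberine together with 500 microg/ml anti-DNP IgE), BER (10 microM berberine), DNP (500 microg/ml anti-DNP IgE, which binds the hapten dinitrophenyl) and control (no treatment), all grown in the same medium with 2-mercaptoethanol, Rat T-STIM and fetal bovine serum. Treatment lasted 24 h and was followed by 6 h of culture in the treated groups; the control's own labels give no times, and no label names an antigen step. With 1 Affymetrix mouse genome array in each group, replicate error is unknown and nothing could be tested: every difference below is between 2 single arrays.

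The sodium pump, or Na,K-ATPase, exports sodium and imports potassium against their gradients at the cost of ATP. Its alpha subunit binds the ions and splits ATP, and its glycosylated beta subunit is needed for the alpha subunit to fold and reach the cell surface. The gradient it builds drives sodium-coupled uptake of amino acids, phosphate and other solutes, and in mast cells, as in other cells, it sets the ionic conditions for calcium signalling. Berberine, an alkaloid from plants, is known to slow complex I of the mitochondrial respiratory chain and with it the making of ATP.

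Atp1b1, which encodes the widely used beta-1 subunit, read lower on both arrays with berberine, but in some of its probe sets only. The probe set with the highest signal was 1.61-fold lower in BER than in control and 1.69-fold lower in BER+DNP than in DNP, and a second was 1.35-fold and 1.53-fold lower. The other 3 lay between -0.28 and 0.10 on the log2 scale in both berberine pairs. In Atp1a4, Atp1b2 and Atp1b3 the berberine differences ran from -0.34 to 0.10.

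The table holds log2 signals, and its array medians lay at 3.15 for BER, 3.14 for BER+DNP, 3.14 for DNP and 3.13 for control. Of the 45037 probe sets that are no array controls, 22519 had a mean signal at or above the median of 3.138; this was the filter, and 8 of the 9 sodium pump probe sets passed it. Pearson correlations between arrays across probe sets ran from 0.988 to 0.991. Mast cell markers did not clearly bear out the cell label. By brightest probe set, 12585 of all 18193 genes passed the filter, and so did 6 of 12 mast cell markers with a probe set. These were Gata2, Hdc, Tpsb2, Mcpt4, Fcer1g and Cma1, with mean log2 signals of 5.87, 5.50, 4.08, 3.85, 3.56 and 3.31. Kit, Fcer1a, Ms4a2, Cpa3, Tpsab1 and Mitf did not pass, with 2.78, 2.43, 2.67, 2.53, 2.77 and 2.08. The summed linear signal of 7 epithelial markers, 6 of which passed, was 1397 in BER against 1372 in control. In BER+DNP it was 1481 against 1519 in DNP. That of the 12 mast cell markers was 180 in BER against 181 in control. In BER+DNP it was 208 against 207 in DNP. The genes behind these near-equal sums did not move together. In BER minus control and BER+DNP minus DNP, Hdc gave -0.14 and 0.50, Gata2 -0.13 and -0.33, and Mcpt4 0.25 and -0.32. Fcer1g gave -0.42 and -0.08, Tpsb2 0.13 and 0.08, and Cma1 0.25 and -0.12. In bulk RNA, fewer cells of a type and less RNA per cell cannot be told apart.

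**Figure D1:**
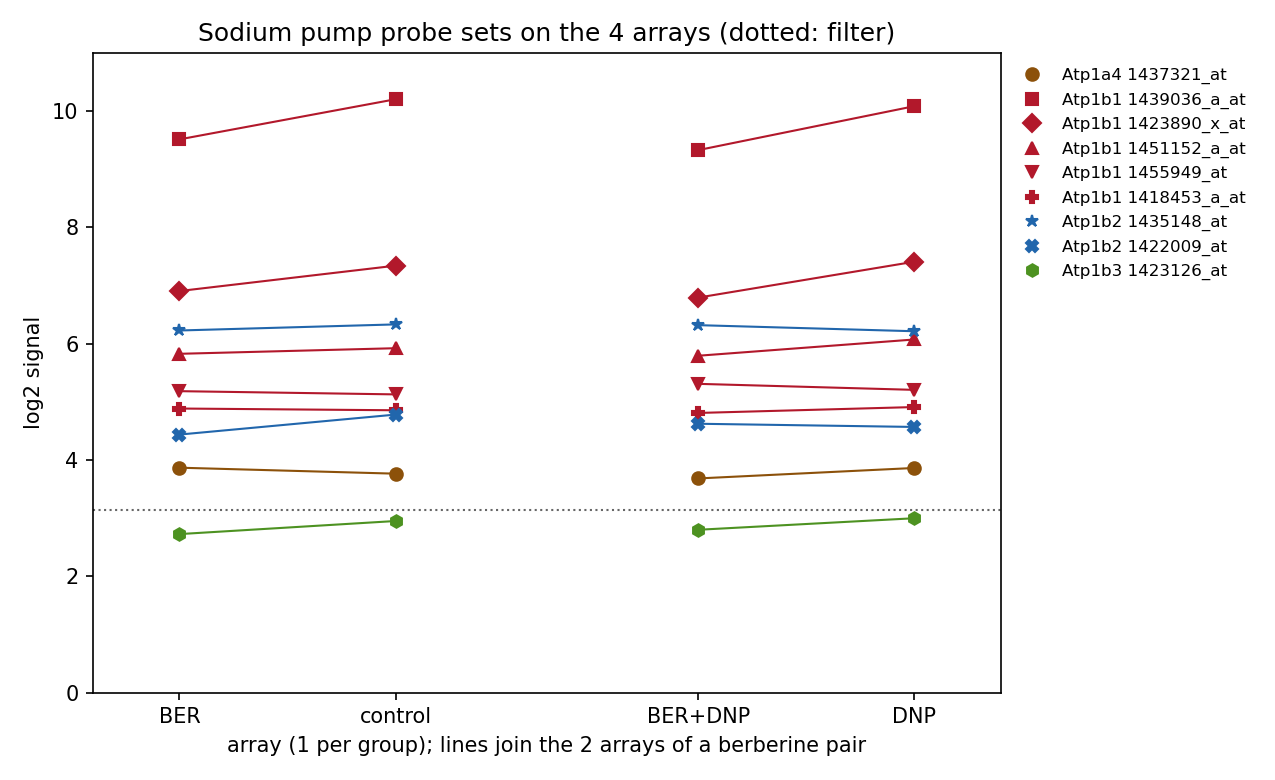
Log2 signal (vertical axis) of each sodium pump probe set on the 4 arrays, with the arrays of each berberine pair joined by a line; each point is 1 array and the dotted line is the filter at 3.138. The upper 2 Atp1b1 lines are lower on the berberine array in both pairs, and the other 7 lines differ by less, from -0.34 to 0.10.

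Among the catalytic subunits, Atp1a4 was the member measured. It encodes the alpha-4 subunit, known for its role in sperm. Its log2 signal was 3.87 in BER against 3.76 in control, and 3.68 in BER+DNP against 3.86 in DNP. The 2 berberine pairs thus pointed in opposite directions, with differences of 0.10 and -0.18. Its mean signal, 3.79, lay close to the filter.

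Among the beta subunits, Atp1b1 has probe sets of widely different signal, given here from the highest to the lowest. Signals of different probe sets are not levels on 1 scale, so they are compared only between arrays. Probe set 1439036_a_at, whose suffix marks probes shared by several transcripts of the gene, had log2 signals of 9.51 in BER and 10.20 in control, and of 9.33 in BER+DNP and 10.09 in DNP. Both berberine arrays were below both arrays without it, with a gap of 0.57 between them. It differed by -0.69 in BER minus control and by -0.76 in BER+DNP minus DNP.

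Probe set 1423890_x_at, whose suffix marks probes that can bind related transcripts, had log2 signals of 6.91 in BER and 7.34 in control, and of 6.79 in BER+DNP and 7.41 in DNP. The order of the arrays was nearly that of the first probe set, and the groups again did not overlap. Its differences were -0.44 and -0.62, so that only the second was past 1.5-fold, which is 0.58 on the log2 scale. Probe set 1451152_a_at is annotated to the same cDNA record as 1423890_x_at. It read 5.83 in BER against 5.92 in control, and 5.79 in BER+DNP against 6.07 in DNP, with differences of -0.10 and -0.28. It kept the direction of the first 2 and showed smaller differences.

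The remaining 2 Atp1b1 probe sets did not share that direction in both pairs. Probe set 1455949_at read 5.18 in BER against 5.13 in control, and 5.31 in BER+DNP against 5.21 in DNP, which is higher with berberine by 0.06 and 0.10. Probe set 1418453_a_at read 4.89 in BER against 4.86 in control, and 4.81 in BER+DNP against 4.91 in DNP, with differences of 0.03 and -0.10. In both, the arrays with and without berberine overlapped. Between the highest and the lowest of the 5 probe sets the berberine difference spanned 0.75 log2 in the pair without anti-DNP IgE and 0.86 in the pair with it. The median of the 5 was -0.10 and -0.28. Which part of the transcript each probe set reads was not analysed here.

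**Figure D2:**
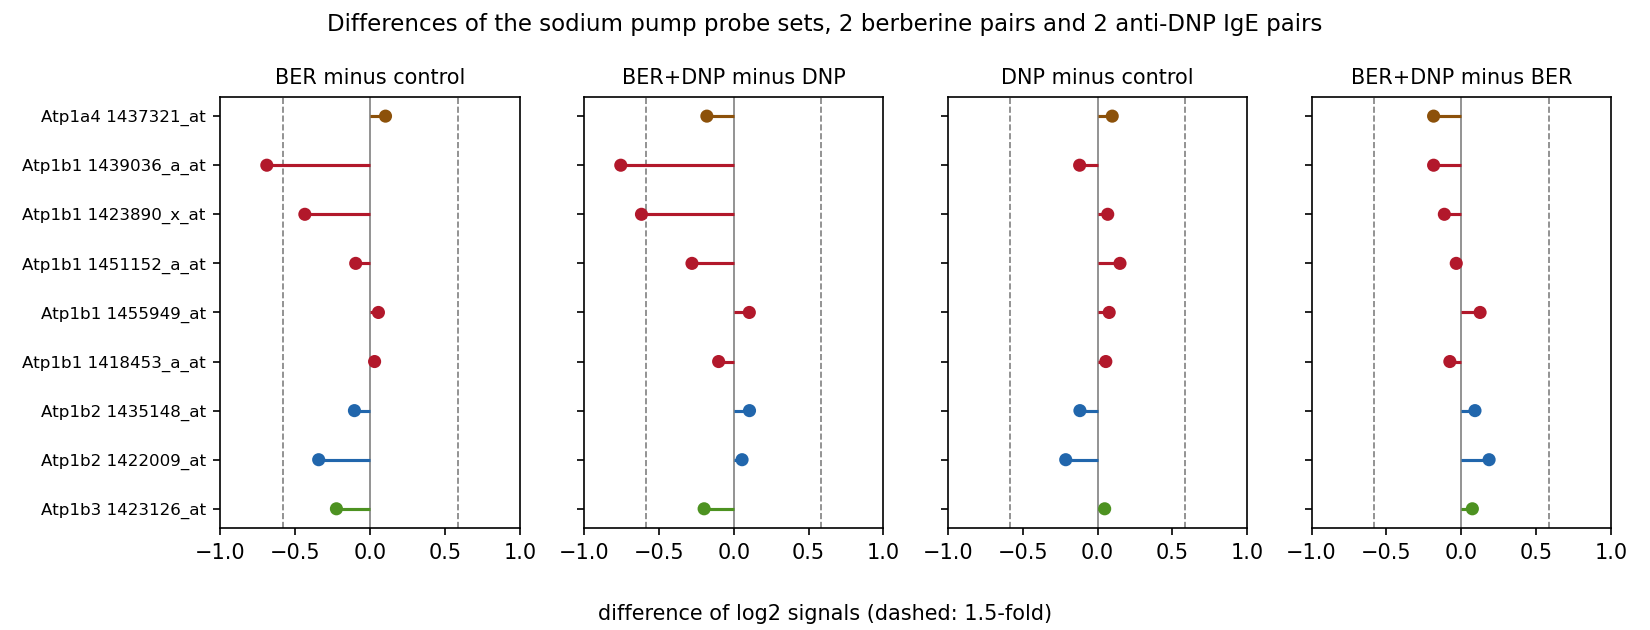
Difference of log2 signals (horizontal axis) for each sodium pump probe set in the 2 berberine pairs and the 2 anti-DNP IgE pairs; each point is a difference between 2 arrays and the dashed lines mark 1.5-fold. Points past a dashed line are 1439036_a_at in both berberine pairs and 1423890_x_at in BER+DNP minus DNP; 0 lie past it in the anti-DNP IgE pairs.

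Set against the whole table, the share of probe sets that read at least 1.5-fold lower was 1.04% in BER against control, where 1 of the 8 sodium pump probe sets that passed the filter did so, and 0.675% in BER+DNP against DNP, where 2 did. In both pairs at once it was 0.151% (34 probe sets), and 1439036_a_at was the 1 sodium pump probe set among them. Of the 22519 probe sets, 95 had a lower difference than 1439036_a_at in BER minus control, as did 27 in BER+DNP minus DNP. These low differences were more frequent at high signal: of the 2252 probe sets in the brightest 5%, 0.933% read 1.5-fold lower in both pairs. Among the 107 other probe sets within 0.5 log2 of the mean signal of 1439036_a_at, the median difference was -0.04 for the pair without anti-DNP IgE, where 3 read as low as it did, and -0.10 for the pair with it, where 2 did. Both berberine arrays lay below both others in 3 of the 8 probe sets that passed and in 18.9% of all those that passed. Atp1b1 was chosen for this contrast, and nothing is read from these counts.

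**Figure D3:**
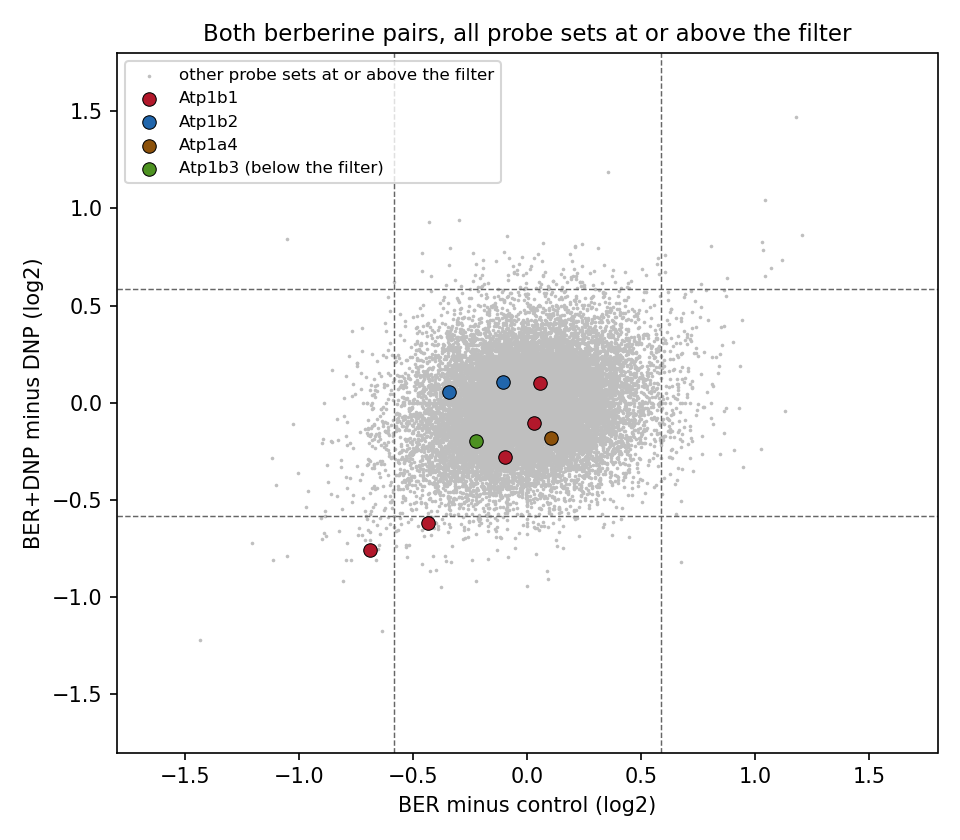
Difference in BER minus control (horizontal axis, log2) against that in BER+DNP minus DNP (vertical axis, log2) for the 22519 probe sets at or above the filter in grey, with the sodium pump probe sets in colour; dashed lines mark 1.5-fold and the 2 pairs share no array. One Atp1b1 probe set lies in the lower left corner, at -0.69 and -0.76, a second at -0.44 and -0.62, and the others lie within the bulk of the points.

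Some array controls and markers of other cell types were also lower on the berberine arrays, and others were not. For beta-actin, the array's own control at the 5' part of the transcript gave -0.57 log2 in BER minus control and -0.59 in BER+DNP minus DNP, that in the middle gave -0.54 and -0.51, and that at the 3' part -0.31 and -0.22. The Gapdh controls gave 0.05 and -0.08 for the 5' part, 0.12 and -0.01 for the middle, and -0.03 and 0.02 for the 3' part. The 24 poly-A spike probe sets had medians of -0.48 and -0.14, and the 18 hybridisation spike probe sets 0.03 and 0.10. The summed linear signal of 3 muscle markers, 2 of which passed the filter, was 79.2 in BER against 91.5 in control and 77.6 in BER+DNP against 90.5 in DNP; of these genes Actc1 gave -0.68 and -0.12, Myh6 -0.20 and -0.14, and Des -0.01 and -0.28. The sum of 2 neuronal markers, 1 of which passed, was 65.2 in BER against 74.6 in control. In BER+DNP it was 67.2 against 68.8 in DNP. Tubb3 gave -0.21 and -0.03, and Snap25, below the filter, 0.14 and -0.10. The sum of 5 fibroblast markers, 4 of which passed, was 66.5 in BER against 63.1 in control. In BER+DNP it was 69.4 against 67.1 in DNP. This sum was higher with berberine in both pairs, but of its genes only Col1a2 was, at 0.08 and 0.25. Col1a1 gave -0.07 and 0.20, Col3a1 -0.25 and 0.03, Dcn 0.34 and -0.01, and Pdgfra 0.10 and -0.23. The sum of 4 leukocyte markers, 1 of which passed, was 133 in BER against 128 in control. In BER+DNP it was 108 against 116 in DNP, so the pairs had no common direction. The part of any of these in the Atp1b1 difference was not tested. With quantile normalization of the deposited values, 1439036_a_at had -0.577 in BER against control, just short of 1.5-fold, and -0.634 in BER+DNP against DNP. Probe set 1423890_x_at then gave -0.51 in the second pair and was no longer past 1.5-fold, which leaves 1 sodium pump probe set of the 2 there.

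Atp1b2 encodes the beta-2 subunit, also called AMOG, the adhesion molecule on glia. Its brighter probe set, 1435148_at, read 6.23 in BER against 6.33 in control, and 6.32 in BER+DNP against 6.21 in DNP. The berberine differences were of equal size and opposite sign, -0.10 and 0.10. The dimmer one, 1422009_at, read 4.44 in BER against 4.78 in control, and 4.62 in BER+DNP against 4.57 in DNP. Its -0.34 in the first pair was the largest difference of any sodium pump probe set outside Atp1b1 in the 2 berberine pairs, and the second pair gave 0.06. In both probe sets the arrays with and without berberine overlapped. Opposite signs in the 2 berberine pairs were found in 4 of the 8 sodium pump probe sets that passed the filter and in 42.9% of all that passed.

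Atp1b3 encodes the beta-3 subunit, which many cell types use. Its 1 probe set, 1423126_at, read 2.73 in BER against 2.95 in control, and 2.80 in BER+DNP against 3.00 in DNP. Both berberine arrays were below both others, by differences of -0.23 and -0.20. All 4 signals lay below the filter, at a mean of 2.87, so the equal direction of the pairs rests on a weak signal.

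Anti-DNP IgE gave small differences in all 9 probe sets. The share of probe sets at least 1.5-fold apart in either direction was 1.49% in DNP against control and 0.986% in BER+DNP against BER, and 0 of the 8 sodium pump probe sets that passed were among them in either. In DNP against control the differences ran from -0.21 for Atp1b2 probe set 1422009_at to 0.15 for Atp1b1 probe set 1451152_a_at. In BER+DNP against BER they ran from -0.18 to 0.19. Probe set 1439036_a_at gave -0.12 and -0.18, so it read lowest with both agents and highest in control.

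The comparison of BER+DNP with control shares an array with each of the 4 others. In it, 1439036_a_at was 1.83-fold lower (-0.88) and 1423890_x_at 1.46-fold lower (-0.55), and the others lay between -0.16 and 0.18. At least 1.5-fold lower was 1 of the 8 probe sets that passed, and 0.826% of all those that passed.

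The promoter of Atp1b1 is shown because 1 of its 5 probe sets was the sodium pump probe set at least 1.5-fold lower in both berberine pairs. The arrays measured the transcript and not the use of this region. RefSeq promoter windows on mouse GRCm38.p6, each from 250 bases before to 50 after the start site, were found for 3 of the 4 genes, Atp1a4, Atp1b1 and Atp1b3. The Atp1b1 window lies on the minus strand at chr1:164458306-164458605 and holds 71.0% G and C, against a median of 52.7% over 32851 windows. It is printed 5' to 3', with capitals at the TATA box, CCAAT box and GC box letters found on either strand.
Atp1b1 promoter: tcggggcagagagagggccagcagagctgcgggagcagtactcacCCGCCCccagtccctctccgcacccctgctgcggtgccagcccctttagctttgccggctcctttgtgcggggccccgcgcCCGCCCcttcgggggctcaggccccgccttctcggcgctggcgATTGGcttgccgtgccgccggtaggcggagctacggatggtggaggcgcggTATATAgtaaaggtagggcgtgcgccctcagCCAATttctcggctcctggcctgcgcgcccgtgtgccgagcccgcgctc

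The TATA box letters (TATANA) begin at position -30 from the start site, and 24.7% of all windows hold them on either strand. The CCAAT box letters (CCAAT) begin at position -81 and again at position 2, and 37.4% of windows hold them. The GC box letters (GGGCGG) begin at positions -205 and -124, and 35.7% of windows hold them. Of the other genes, Atp1b3 has 6 GC box matches in 1 of its 2 windows and no TATA box or CCAAT box match, and Atp1a4 has none of the 3. These letters were chosen after the sequence had been seen, and a match is no evidence of a bound site. The element bound by ATF4 (TGATGNAAN, in 3.95% of windows) was not matched in any of these windows. The core of the cAMP response element (TGACG, in 20.8%) was matched once in each Atp1b3 window, and the E-box (CACGTG, in 7.15%) in 1 of them.

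The genes whose pattern over the 4 arrays was most like that of 1439036_a_at were sought among 17529 probe sets with 1 gene symbol at or above the filter, leaving out unannotated transcripts, by the root mean square distance after each probe set's own mean had been subtracted. The nearest was Sf3b5, a subunit of a splicing complex, at a distance of 0.016 log2, with differences of -0.65 and -0.73 in the 2 berberine pairs. Next came Fign, an ATPase that cuts microtubules, at 0.032, the stress granule gene G3bp2 at 0.048, the transcription factor gene Creb1 at 0.049, the tetraspanin gene Tspan5 at 0.056 and Vcl, which encodes vinculin, at 0.060. With 4 arrays such a ranking is a description. Of the other Atp1b1 probe sets, 1423890_x_at was at 0.12, with 26 probe sets nearer, and 1455949_at at 0.42, with 12503 nearer.

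Genes around the pump were read in 6 lists of 65 genes, each gene by its brightest probe set; 57 had a probe set with 1 symbol and 44 passed the filter. In BER against control, 1 of the 44 was at least 1.5-fold lower and 2 were at least 1.5-fold higher, against 0.985% and 1.01% of all 12585 genes. In BER+DNP against DNP, 0 were lower and 0 higher, against 0.699% and 0.509%. Below 0 in both pairs were 10 of the 44, against 29.7% of all genes, and 10 were above 0 in both, against 25.4%. Nothing particular to a list is read from these counts.

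Atp1b4, of the same beta subunit family but known in placental mammals as a protein of the muscle nuclear membrane, read 2.02 in BER against 1.79 in control and 1.87 in BER+DNP against 2.56 in DNP, all below the filter. The FXYD proteins are small membrane proteins that tune the pump's affinity for its ions. Of their 7 genes 5 passed, with medians of 0.23 for BER minus control and -0.11 for BER+DNP minus DNP, beside 0.00 and -0.02 over all genes. Fxyd4 gave 0.26 and 0.22, and Fxyd5, which encodes dysadherin, 0.32 and -0.11. The related proton pump genes Atp4a and Atp4b had a median of 0.19 and -0.17.

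The calcium pumps belong to the same P-type family, and 6 of their 9 genes passed, with medians of -0.10 and -0.07. The 1 gene of all 6 lists that was 1.5-fold lower was Atp2a2, which encodes SERCA2, the pump that returns calcium to the endoplasmic reticulum. Its brightest probe set read 6.22 in BER against 6.90 in control, and 6.21 in BER+DNP against 6.76 in DNP. Those differences, -0.69 and -0.56, came from 1 of 3 probe sets of the gene that passed the filter. The others that passed gave -0.02 and -0.20, and -0.16 and -0.584. Only the brightest was 1.5-fold lower in the first pair. None was in the second, where the -0.584 fell just short of 1.5-fold, which is 0.585.

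Of 30 carriers that use or feed the sodium gradient 22 passed, with medians of 0.00 and -0.06. Slc6a9, which encodes the glycine transporter GlyT1, read 6.92 in BER against 6.29 in control, and 6.59 in BER+DNP against 6.32 in DNP. It was past 1.5-fold in the first pair only, and its second probe set gave -0.08 and -0.01. Slc9a8, a sodium/proton exchanger gene, gave 0.60 for BER minus control and -0.08 for BER+DNP minus DNP. Its other two probe sets that passed gave 0.20 and -0.13, and -0.09 and -0.48, short of 1.5-fold. Slc20a2, a sodium-phosphate cotransporter gene with the brightest signal of the list, gave -0.34 and -0.48. The second Slc20a2 probe set, below the filter at a mean of 3.02, gave 0.06 and 0.27. Proteins that bind the pump or act on it had medians of 0.12 and -0.07 over 9 of 12 genes. Their brightest, Nedd4l, a ubiquitin ligase gene known for acting on the epithelial sodium channel, differed by -0.03 and -0.06.

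**Figure D4:**
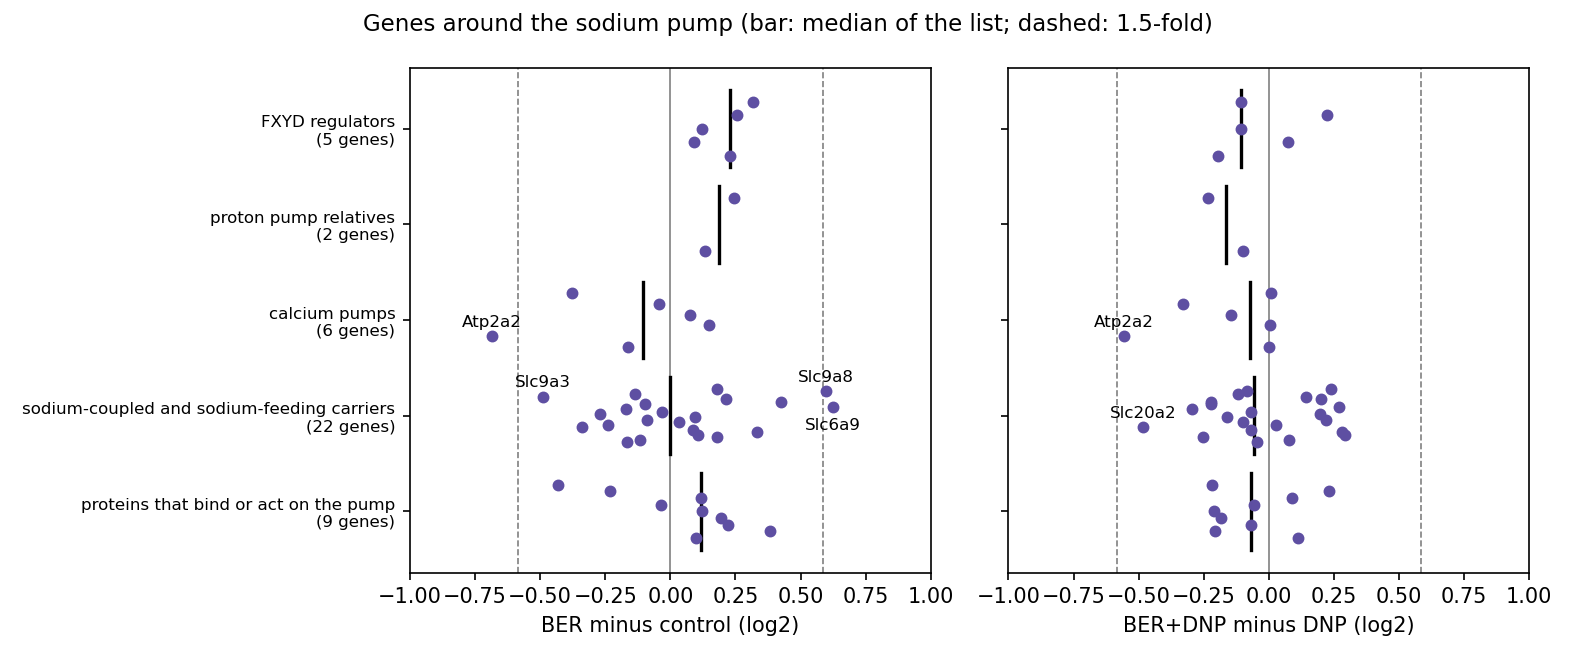
Difference of log2 signals in BER minus control (left) and BER+DNP minus DNP (right) for the genes around the pump that passed the filter, 1 point per gene by its brightest probe set, with a bar at each list's median and dashed lines at 1.5-fold. Atp2a2 is lowest in both panels, at -0.69 and -0.56, and Slc9a8 and Slc6a9 pass the upper line on the left only.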

How the data were processed

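Per the labels, the authors processed 4 arrays with Affymetrix Expression Console, named in the submitters' processing notes; for its version, summary method, background correction and detection calls the sources used here give nothing. The deposited values were taken as log2 signals, since they run from 1.05 to 14.0, and were used as deposited because the array medians were close. Any floor or smoothing at low signals stays in them. Depth does not apply to arrays; their number limits the precision.

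Of 45101 probe sets, 64 array controls were set apart. Symbols came from a platform annotation dated 2016, under which 34945 had 1 symbol, 932 more than 1 and 9160 none; genes were named from 1 symbol only. Every probe set of Atp1a4, Atp1b1, Atp1b2 and Atp1b3 was reported. Probe sets entered counts if their mean log2 signal reached the median, 3.138, and other genes were read by their brightest probe set. A value was counted as lower or higher from 1.5-fold, a size and not a test. The counting steps were tested on simulated data, which checks the code and gives no rate of false calls on these arrays. Alternatives were other filters, normalizations, added signals, folds and probe sets. Named genes were the members, those in 6 lists that passed 1.5-fold in a berberine pair or were brightest, further list genes (Fxyd4, Fxyd5, Atp1b4) taken after their values were seen, and the 6 patterns nearest to Atp1b1. The members and lists were chosen with earlier results of these data known. Python 3.11.15, numpy 2.4.6, pandas 2.3.3 and matplotlib 3.10.9 were used.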

Additional observations from a re-analysis of the deposited data

Results flagged for a closer look

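In 4 sodium pump probe sets the berberine difference had opposite signs without and with anti-DNP IgE, each on single arrays, and the difference between them was not tested. Opposite signs were found in 42.9% of all probe sets that passed the filter, near the share of 4 in 8 here, so the count is no result about these genes. BER+DNP minus DNP less BER minus control was -0.28 for Atp1a4, -0.13 for Atp1b1 probe set 1418453_a_at, and 0.21 and 0.40 for Atp1b2 probe sets 1435148_at and 1422009_at. The same held for Slc9a8 at -0.68, Fxyd5 at -0.42 and Atp1b4, below the filter, at -0.91. It also held for the list medians of the FXYD regulators at -0.34, of the proton pump relatives at -0.35 and of proteins that bind or act on the pump at -0.19. Only some list genes were examined for this. Of the 44 list genes that passed, 10 were below 0 in both pairs and 10 above 0 in both. Opposite signs were thus common in the lists, and the genes named are examples.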

How the results depend on the processing

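The differences of Atp1b1 in the 5 comparisons, read by its brightest probe set, were recomputed under 6 alternatives each. They kept their side of 1.5-fold except in the following cases. Quantile normalization gave -0.577 in BER against control. The median of the 5 probe sets gave -0.10 in BER against control, -0.28 in BER+DNP against DNP and -0.13 in BER+DNP against control. Sodium pump probe sets 1.5-fold lower in both berberine pairs numbered 1 as reported, and 0 with quantile normalization or at 2-fold. Over the whole table the 34 such probe sets became 11 with 32 added to the linear signals, 7 with 100 added, 1 at 2-fold and 21 without probe sets ending in _x_at or _s_at. Quantile normalization makes the distributions of the arrays equal by construction; why the Atp1b1 probe sets differ was not tested. With 1 array a group, spread between cultures is unknown. Atp1b3 and Atp1a4 are limited by signals near or below the filter.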
